A study of Rattus norvegicus with 6 samples.

Results

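Complement is a cascade of blood and tissue proteins, and the 9 genes described here cover its early steps in cultured rat Leydig cells, the testosterone-producing cells between the seminiferous tubules of the testis. They are C1qa, C1qb and C1qc, which encode the chains of the recognition protein C1q, the C1 proteases C1r and C1s, the later components C2, C3 and Cfb, and the C1 inhibitor Serping1. Members were found through the RefSeq accession that the array files give for a probe, looked up as a rat gene symbol. All 9 were on the array, among 15168 genes with a symbol, and each was well above background on all 6 arrays. The exosome group comprised 3 samples of primary Sprague-Dawley rat Leydig cells kept for 24 h with 5 µg/ml of exosomes, small membrane vesicles, that primary rat Sertoli cells had released. The untreated group comprised 3 samples of the same kind of cells without exosomes, for which no culture time is given. Cells of both groups were grown in serum-containing F12/DMEM medium, and the labels give neither the age of the rats nor whether replicates came from separate animals or cultures. The p-values therefore measure only the spread between these samples, which may be technical. Total RNA was read on 1-colour Agilent arrays, 1 per sample.

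As background, the classical pathway begins when C1q binds antibody complexes, dying cells or other surfaces and the attached C1r and C1s are switched on. C1s then cuts C4 and C2 to form an enzyme that splits C3, the protein on which all complement pathways converge, while factor B, encoded by Cfb, does the work of C2 in the alternative pathway. Serping1 encodes the protein that switches C1r and C1s off. The chains of C1q are made largely by macrophages, which lie beside Leydig cells in the testis, whereas C3, C1r, C1s, Cfb and Serping1 are made by many cell types, fibroblasts included.

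The genes sit in neighbouring groups. In RefSeq's rat assembly GRCr8 C1qb, C1qc and C1qa follow each other on chromosome 5, C1r and C1s on chromosome 4, and C2 and Cfb on chromosome 20. RefSeq's promoter table held 4 of the 9 members, and the 250 bases before the start of each are shown because 3 of these genes, C1qa, C3 and C1r, were called lower in the measurements below and C1qb, of the same cluster as C1qa, was not. Capitals mark matches to motif letters searched on both strands.
C1qb promoter, GRCr8 chr5:154407828-154408077, minus strand: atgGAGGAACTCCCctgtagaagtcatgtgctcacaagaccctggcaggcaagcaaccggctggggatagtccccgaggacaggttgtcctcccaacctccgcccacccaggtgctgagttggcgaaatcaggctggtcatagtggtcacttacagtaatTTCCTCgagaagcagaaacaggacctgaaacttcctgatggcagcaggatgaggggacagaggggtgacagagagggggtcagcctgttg
C1qa promoter, GRCr8 chr5:154419934-154420183, minus strand: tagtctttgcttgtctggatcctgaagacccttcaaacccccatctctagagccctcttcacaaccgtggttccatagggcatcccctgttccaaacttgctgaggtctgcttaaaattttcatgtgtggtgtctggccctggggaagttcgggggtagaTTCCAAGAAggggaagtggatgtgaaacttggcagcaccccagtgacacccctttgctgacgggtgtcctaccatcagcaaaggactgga
C3 promoter, GRCr8 chr9:2201340-2201589, minus strand: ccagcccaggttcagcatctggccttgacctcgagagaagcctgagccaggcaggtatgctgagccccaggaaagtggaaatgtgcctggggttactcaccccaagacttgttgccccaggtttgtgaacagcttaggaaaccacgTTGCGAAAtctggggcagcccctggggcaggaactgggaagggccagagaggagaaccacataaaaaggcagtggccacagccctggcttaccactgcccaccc
C1r promoter, GRCr8 chr4:159098763-159099012, plus strand: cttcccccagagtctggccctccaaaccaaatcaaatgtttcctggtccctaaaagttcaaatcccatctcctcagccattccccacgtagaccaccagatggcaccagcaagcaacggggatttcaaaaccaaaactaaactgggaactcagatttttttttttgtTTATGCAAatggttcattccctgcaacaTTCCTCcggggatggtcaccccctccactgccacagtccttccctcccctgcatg
The searched letters were GAGGAA for PU.1, a factor of macrophages, TTCNNNGAA for the interferon-responsive GAS element, TTGCNNAA for C/EBP, GAAANNGAA for IRF and GGGNNTTCC for NF-kB. Among 33469 rat promoters of the same length, 23.3% held the PU.1 letters, 7.67% the GAS letters, 9.22% the C/EBP letters, 8.12% the IRF letters and 5.09% the NF-kB letters. C1qb held the PU.1 letters at bases 247 to 242 and 90 to 85 before the start, with the NF-kB letters at 245 to 237 overlapping the match farther from the start. C1qa held only the GAS letters, at 90 to 82. C3 held the C/EBP letters at 104 to 97, and C1r held those at 83 to 76 and the PU.1 letters at 55 to 50. A match is a run of letters in a window and not a measured binding site.

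Levels below are log2 values of the processed intensity minus the 75th percentile of the same array, so that 0 is that percentile. A difference is exosome minus untreated, with its standard error (SE) from limma and n = 3 arrays per group, and a gene is called at an adjusted p below 0.05 after Benjamini-Hochberg over all tested probes. Of the 9 members 0 were called higher and 5 were called lower in exosome-treated cells. Over all 10981 tested genes 14.5% were called higher and 29.2% lower. The groups did not overlap for 7 of the 9 members, against 62% of all tested genes. The median difference of the members was −0.41 and that of all tested genes −0.19. Under quantile normalization the median of all genes was 0.01 and the calls over all genes were 2217 higher and 1762 lower, against 1596 and 3204 here, while the members gave 0 higher and 4 lower. Relative to the median of all genes the 5 called members differed by −0.63 for C1qc, −0.54 for C3, −0.44 for C1qa, −0.25 for C2 and −0.22 for C1r.

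The arrays stood close together, with r of 0.984 to 0.994 within a group and 0.969 to 0.983 between groups. The share of spots with a gene probe that exceeded background clearly was 67.2% to 72.2% on exosome arrays and 72.6% to 75.6% on untreated arrays. The scan recorded in the file headers was shared by all 3 untreated arrays, by exosome 1 and 2, and held exosome 3 alone, so each scan held 1 group, no value within a scan could be computed, and scan and group cannot be told apart. With the scan as a random block the correlation within a scan was 0.11 and 4 members were called lower, C2 no longer passing (−0.44, adjusted p = 0.0699). In RNA from a whole culture, fewer cells of a type and less RNA per cell cannot be told apart, which applies to every value below.

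**Figure D1:**
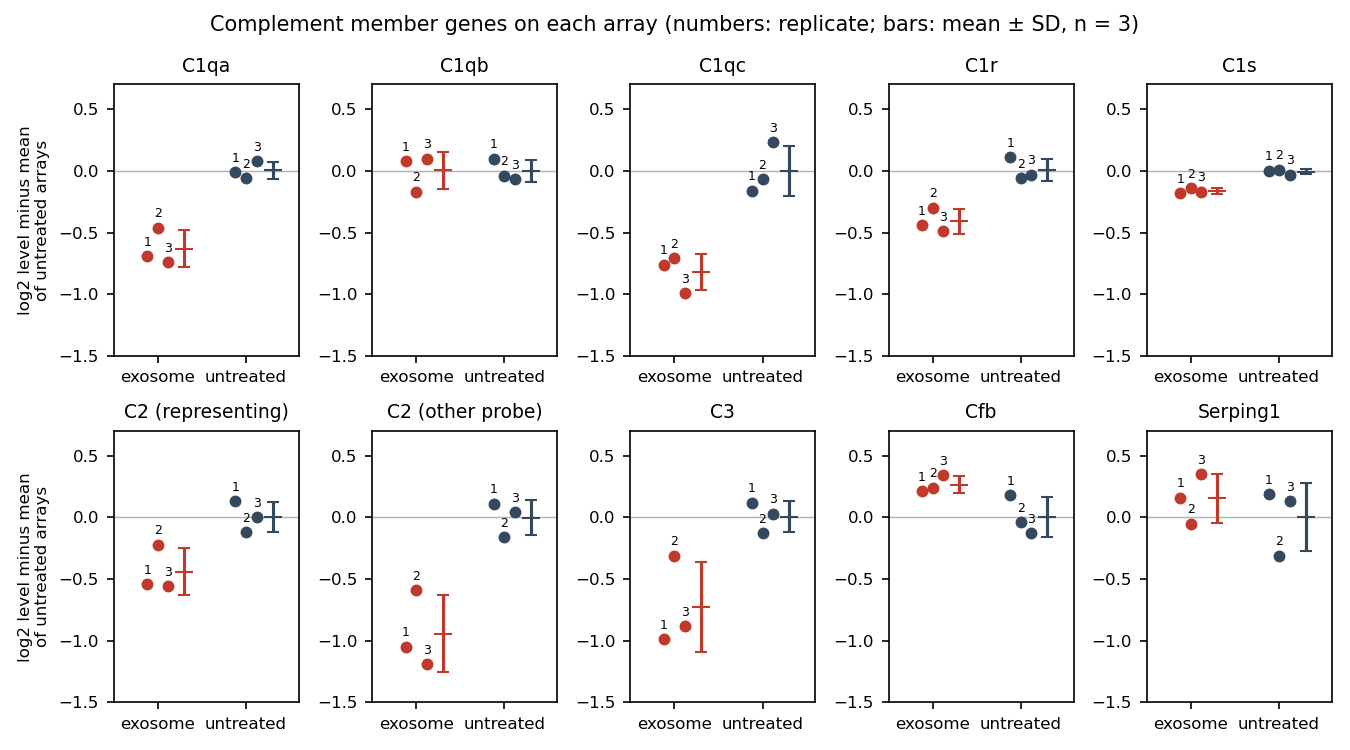
Log2 level of each member gene on each array, minus the mean of the untreated arrays (y axis), with exosome arrays in red on the left of each panel and untreated arrays in blue on the right. Points are arrays with their replicate number, bars are mean ± SD, n = 3, and C2 has a panel for the probe that represents the gene and for its other probe. The exosome points of C1qa, C1qc, C1r, C1s, C2 and C3 lie below all untreated points, those of Cfb lie above them, and those of C1qb and Serping1 overlap with them.

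Of the chains of C1q, the A and C chains were called lower in exosome-treated cells and the B chain was not called. Each chain was measured by 1 probe with 1 spot per array. A difference between chains therefore cannot be told apart from a difference between probes. Probes of the same gene could differ, as those of C2, described below, at −0.44 and −0.94. The difference between the chains was tested on its own, further below, and could not pass with 3 arrays per group. C1qa, the A chain, had log2 levels of 0.87, 1.1 and 0.82 in exosome-treated cells, against 1.55, 1.5 and 1.64 in untreated cells. All 3 exosome arrays lay below all 3 untreated arrays, and exosome 2 was the nearest to them. C1qa fell by 0.63 on the log2 scale (SE 0.12, 95% confidence interval −0.93 to −0.33, adjusted p = 0.0135), which is 1.55-fold lower. C1qc, the C chain, had log2 levels of −2.64, −2.59 and −2.87 in exosome-treated cells, against −2.04, −1.95 and −1.65 in untreated cells. These groups did not overlap either, and C1qc fell by 0.82 (SE 0.15, interval −1.18 to −0.46, adjusted p = 0.0121), or 1.77-fold. C1qb, the B chain, had log2 levels of 1.61, 1.36 and 1.63 in exosome-treated cells, against 1.63, 1.49 and 1.46 in untreated cells. Its groups overlapped, and the difference was 0.00 ± 0.13 (SE, adjusted p = 0.981) with an interval of −0.30 to 0.31, which does not reach the point estimates of C1qa and C1qc.

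For C1qc the groups were also apart before any scaling between arrays. Its processed intensity was 160.9, 175.8 and 117.9 on exosome arrays, against 212.2, 201.6 and 239.8 on untreated arrays. For C1qa the intensity was 1839, 2271 and 1520 on exosome arrays, against 2553, 2201 and 2348 on untreated arrays, so exosome 2 exceeded untreated 2 before scaling. The 75th percentiles by which these were scaled were 1004, 1061 and 859.6 on exosome arrays and 872.4, 778.7 and 752.9 on untreated arrays. C1qb had 3058, 2719 and 2660 on exosome arrays, against 2695, 2191 and 2074 on untreated arrays.

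The contrast between the chains was compared within arrays, where a shift common to all probes of an array cancels. Processing that acts differently on dim and bright probes does not cancel. The log2 ratio of C1qb to C1qa was higher by 0.64 in exosome-treated cells, at 0.77, 0.30 and 0.84 above the untreated mean on exosome arrays, against 0.11, 0.03 and −0.14 on untreated arrays. The ratio of C1qb to C1qc was higher by 0.82, with 0.84, 0.54 and 1.09 on exosome arrays, against 0.26, 0.04 and −0.29 on untreated arrays. In both ratios the groups did not overlap, and the exact two-sided permutation p was 0.1, the smallest that 3 against 3 arrays allow. The ratio of C1qa to C1qc was 0.19 higher with overlapping groups (exact permutation p = 0.2). Adjusted over the 9 pairs of members compared, these p-values were 0.13, 0.13 and 0.22. Under quantile normalization C1qa differed by −0.67, C1qc by −0.57 and C1qb by −0.04. C1qa then fell more than C1qc, as in the authors' deposited table (−0.66 and −0.57). Under normexp C1qa fell less than C1qc (−0.62 and −0.66).

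The calls of C1qa and C1qc depended on single arrays. Without exosome 1, untreated 2 or untreated 3 C1qa differed by −0.60, −0.66 and −0.59 with adjusted p = 0.0529, 0.0544 and 0.0547, and C1qc differed by −0.85 with adjusted p = 0.0508 without untreated 2. Centring the arrays on their medians left both chains called, at −0.41 for C1qa (adjusted p = 0.0448) and −0.60 for C1qc (adjusted p = 0.0199). C1qb ranged from −0.09 to 0.22 over the 18 alternatives and was called in none.

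Of the proteases that C1q carries, C1r was lower in exosome-treated cells and C1s did not pass the test. C1r, which activates itself and then C1s, had log2 levels of 4.54, 4.68 and 4.49 in exosome-treated cells, against 5.09, 4.92 and 4.95 in untreated cells. The groups did not overlap, and C1r, measured by a probe with 10 spots per array, fell by 0.41 (SE 0.12, interval −0.70 to −0.13, adjusted p = 0.0329). C1s, which cuts C4 and C2, had log2 levels of 5.35, 5.39 and 5.36 in exosome-treated cells, against 5.53, 5.54 and 5.50 in untreated cells. Replicates of C1s were the tightest of all members, with an SD of 0.02 in both groups, and the groups did not overlap. In limma, which moderates the spread of a probe over all probes, the difference was −0.16 ± 0.10 (SE, adjusted p = 0.239), and it was 0.06 after centring on the median. The log2 ratio of C1s to C1r was 0.25 higher in exosome-treated cells, with groups that did not overlap (exact permutation p = 0.1, adjusted p = 0.13).

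The call of C1r was made in 1 of the 6 fits with an array left out, the fit without exosome 2 (−0.47, adjusted p = 0.0288). In the other fits C1r differed by −0.45 to −0.36, with adjusted p of 0.108 without exosome 1, 0.0754 without exosome 3, and 0.0657, 0.0949 and 0.0865 without untreated 1, 2 and 3. Its call was lost in 11 of the 18 alternatives in all, among them quantile normalization (−0.36, adjusted p = 0.118), the authors' deposited table (−0.36, adjusted p = 0.117) and centring on the median (−0.19, adjusted p = 0.289).

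Among the later components C2 and C3 were lower in exosome-treated cells, and Cfb, the counterpart of C2 in the alternative pathway, was not. C3, the central component, had log2 levels of 0.96, 1.64 and 1.07 in exosome-treated cells, against 2.07, 1.82 and 1.98 in untreated cells. Exosome 2 lay nearest to the untreated arrays and exosome 1 and 3 well below it, and the groups did not overlap. C3 fell by 0.73 (SE 0.20, interval −1.21 to −0.25, adjusted p = 0.0293), or 1.66-fold.

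C2 was measured by 2 probes, both of which were called lower. The probe that stands for the gene, of the higher mean over the 6 arrays, had log2 levels of 0.94, 1.26 and 0.92 in exosome-treated cells, against 1.61, 1.36 and 1.48 in untreated cells, and fell by 0.44 (SE 0.14, interval −0.78 to −0.10, adjusted p = 0.0475). The other probe had 0.60, 1.06 and 0.46 in exosome-treated cells, against 1.76, 1.49 and 1.69 in untreated cells, and fell by 0.94 (SE 0.18, interval −1.38 to −0.50, adjusted p = 0.0133). On both probes exosome 2 was the nearest to the untreated arrays, and the groups did not overlap.

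Cfb had log2 levels of 3.79, 3.82 and 3.92 in exosome-treated cells, against 3.76, 3.54 and 3.45 in untreated cells. All 3 exosome arrays lay above all 3 untreated arrays, although exosome 1 and untreated 1 were nearly level. The difference of 0.26 ± 0.13 (SE, interval −0.04 to 0.57, adjusted p = 0.138) did not pass the test, and Cfb was called in none of the 18 alternatives, the smallest adjusted p being 0.0506 after centring on the median. C2 and Cfb, neighbours in the genome, were compared within arrays: the log2 ratio of Cfb to C2 was 0.70 higher in exosome-treated cells, with 0.75, 0.46 and 0.90 on exosome arrays, against 0.05, 0.08 and −0.13 on untreated arrays. For Cfb over C3 it was 0.99 higher, with 1.21, 0.55 and 1.22 on exosome arrays, against 0.06, 0.10 and −0.16 on untreated arrays. Neither ratio overlapped between groups, each with an exact permutation p of 0.1 and an adjusted p of 0.13. The ratio of C3 to C2 had no settled direction, since it differed by −0.29 with the C2 probe that stands for the gene (exact permutation p = 0.1, adjusted p = 0.13) and by 0.21 with the other C2 probe.

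Without exosome 2 the calls of C2 and C3 were made at −0.55 (adjusted p = 0.0233) and −0.94 (adjusted p = 0.0105). In none of the other 5 fits with an array left out was either called: C2 differed by −0.39 and −0.38 without exosome 1 and 3 and by −0.38, −0.50 and −0.44 without untreated 1, 2 and 3, and C3 by −0.60 and −0.66 and by −0.67, −0.80 and −0.72 without the same arrays. In all, the call of C2 was lost in 10 of the 18 alternatives and that of C3 in 8. Centring on the median gave −0.22 for C2 (adjusted p = 0.298) and −0.51 for C3 (adjusted p = 0.0944).

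Serping1, the inhibitor, did not differ detectably. Its log2 levels were 5.17, 4.96 and 5.36 in exosome-treated cells, against 5.20, 4.70 and 5.14 in untreated cells, and the groups overlapped. The difference was 0.15 ± 0.18 (SE, adjusted p = 0.538), with an interval of −0.29 to 0.59, and without untreated 2, the lowest array, it was −0.01. Relative to the proteases it blocks, the log2 ratio of Serping1 to C1r was 0.56 higher in exosome-treated cells, with 0.60, 0.25 and 0.84 on exosome arrays, against 0.08, −0.25 and 0.17 on untreated arrays (exact permutation p = 0.1, adjusted p = 0.13). The ratio of Serping1 to C1s was 0.31 higher with overlapping groups (exact permutation p = 0.3, adjusted p = 0.3).

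**Figure D2:**
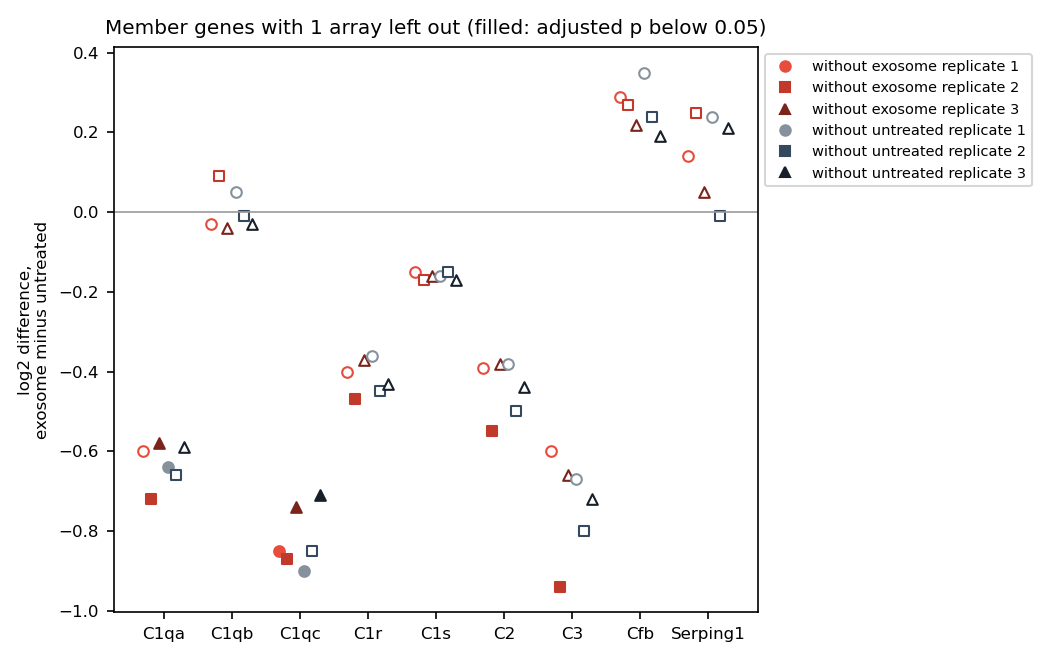
Log2 difference, exosome minus untreated (y axis), of each member gene (x axis) in 6 fits that each leave out 1 array, exosome arrays in reds and untreated arrays in greys and blues. Filled points have an adjusted p below 0.05. C1qc was called in 5 of the 6 fits, C1qa in 3, and C1r, C2 and C3 in 1 each, that without exosome 2, while the sign of each of these 5 genes was the same in all 6.

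By role, the medians of the differences were −0.63 for the C1q chains, −0.29 for the C1 proteases, −0.44 for the later components and 0.15 for the inhibitor. In every role with more than 1 gene some members were called lower and others were not called. The number of members called lower varied from 0 without untreated 2 to 5 without exosome 2. It was 1 without exosome 1 and without untreated 3, and 2 without exosome 3 and without untreated 1. Over all tested genes, calls lower numbered 767 without untreated 2, 860 without untreated 3 and 1388 without exosome 1, against 3204 with all arrays. They numbered 2378 without exosome 3, 3275 without untreated 1 and 3291 without exosome 2. Fewer member calls went with fewer calls over all genes, except without untreated 1.

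**Figure D3:**
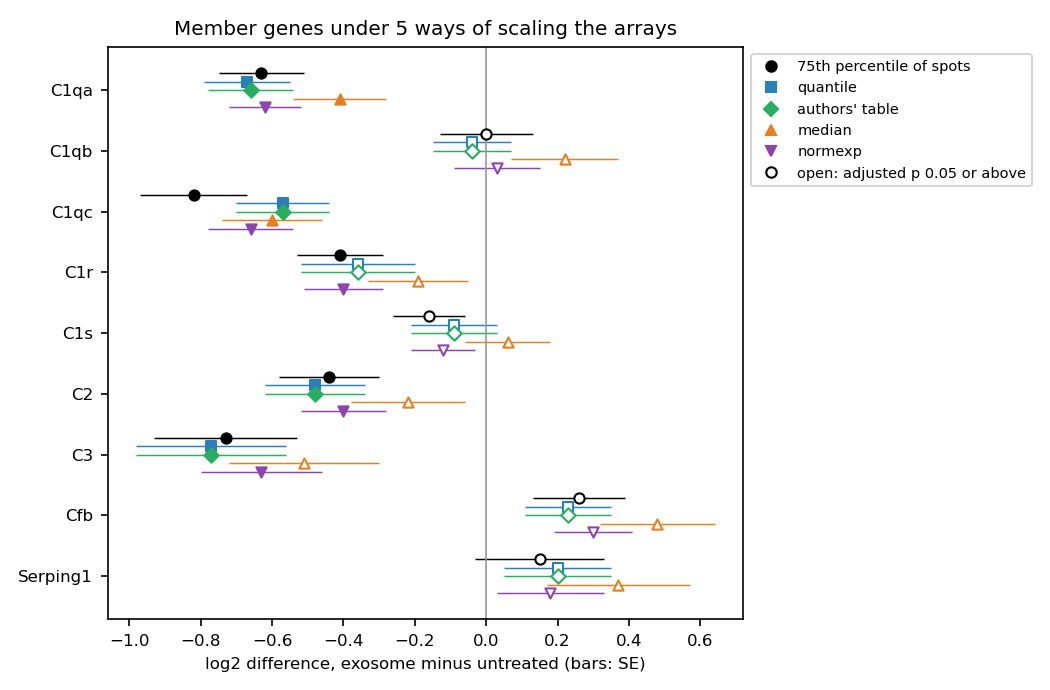
Log2 difference, exosome minus untreated, ± SE (x axis) of each member gene (y axis) under 5 ways of processing the arrays. Filled points have an adjusted p below 0.05. C1qa and C1qc were called under all 5, C2 and C3 under all but median centring, C1r under the 75th percentile and normexp, and C1qb, C1s, Cfb and Serping1 under none.

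The rest of the cascade was read from 48 further complement genes, of which 40 were on the array and 26 were tested. Among these 2 were called higher and 5 lower, with a median difference of 0.10, against a median of −0.19 over all tested genes. Over all tested genes 14.5% were called higher and 29.2% lower. Quantile normalization gave 9 higher and 3 lower of the 26, against 2217 higher and 1762 lower of all 10981 tested genes. Genes were grouped into initiators, activation components, terminal components, soluble regulators, membrane regulators and receptors.

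Of 4 tested initiators, which recognise sugars on surfaces or pass that signal on, the ficolins Fcna and Fcnb were lower and the scavenger collectin Colec12 was higher in exosome-treated cells. Fcna had log2 levels of −2.10, −1.85 and −2.33 in exosome-treated cells, against −1.30, −1.31 and −1.09 in untreated cells, and fell by 0.86 (SE 0.16, adjusted p = 0.0120). Fcnb fell by 0.55 (SE 0.13, adjusted p = 0.0201), at −4.40, −4.22 and −4.37 in exosome-treated cells, against −3.96, −3.73 and −3.66 in untreated cells. Colec12 rose by 0.55 (SE 0.17, adjusted p = 0.0414), at 0.85, 0.34 and 0.61 in exosome-treated cells, against 0.25, −0.09 and −0.01 in untreated cells. None of the 3 overlapped between groups. Masp1, a protease of the lectin pathway, differed by −0.78 ± 0.26 (SE, adjusted p = 0.0535). Without untreated 2 or 3 Fcna was −0.90 and −0.79 and no longer passed. Fcnb was −0.51, −0.52 and −0.49 without exosome 1, untreated 2 and untreated 3, and −0.14 under quantile normalization, and passed in none of these. Colec12 lost its call without exosome 1 (0.43) or 3 (0.55) and without untreated 2 (0.48) or 3 (0.52). It also lost it with the scan as a random block (0.55, adjusted p = 0.065), with no filter (0.55, adjusted p = 0.078) and with the percentile over detected probes (0.46, adjusted p = 0.064).

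Neither of the activation components tested was called: C4a, the fourth component, was at 0.09 ± 0.16 (SE, adjusted p = 0.675) and Cfd, the protease factor D that cuts factor B, at 0.11 ± 0.12 (SE, adjusted p = 0.476). Of the terminal components, which form the pore in target membranes, C6 was higher in exosome-treated cells. Its log2 levels were 1.87, 1.38 and 1.89 in exosome-treated cells, against 0.81, 0.96 and 0.50 in untreated cells, and it rose by 0.96 (SE 0.19, adjusted p = 0.0142), or 1.94-fold, with groups that did not overlap. Without exosome 1 it was 0.88 and without untreated 3 it was 0.83, and it then just missed the test. C8b, a chain of the eighth component, was at 0.33 ± 0.18 (SE, adjusted p = 0.174) and was called at 0.86 under quantile normalization.

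Soluble regulators moved both ways. Clu, encoding clusterin, an extracellular chaperone that also binds terminal complexes, had log2 levels of 3.14, 3.44 and 3.07 in exosome-treated cells, against 3.98, 4.2 and 4.52 in untreated cells. It fell by 1.02 (SE 0.18, adjusted p = 0.0117), or 2.03-fold, and was called in all 6 fits with an array left out and in all 18 alternatives. Clu is also a marker of Sertoli cells, and its call stands in that list too. Vtn, encoding vitronectin, an adhesion protein that also blocks pore formation, fell by 0.86 (SE 0.17, adjusted p = 0.0141), with −5.09, −4.66 and −4.96 in exosome-treated cells, against −4.18, −4.17 and −3.79 in untreated cells. Vtn missed the test without exosome 1 (−0.76), untreated 2 (−0.92) or untreated 3 (−0.73) and under quantile normalization (−0.41), and was called at −0.41 under normexp. Cfi, which cuts C3b, was at 0.34 ± 0.14 (SE, adjusted p = 0.0848), and C4bpb, a chain of the C4b-binding protein, at 0.44 ± 0.17 (SE, adjusted p = 0.0807). Groups did not overlap for Cfi or C4bpb.

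Of the membrane regulators, which protect a cell's own surface, Susd4 was called. It was not well above background on any exosome array and was well above background on 3 untreated arrays, so it entered the test only through the group where it is high, and its call among the 5 lower genes carries that selection. On the 75th percentile scale it was at least 2.0-fold lower in exosome-treated cells (adjusted p = 0.0147). Its fitted difference was −1.36 there, −0.44 under normexp, −0.79 under quantile normalization and −0.77 in the authors' deposited table. Without untreated 2 its adjusted p was 0.053. The other tested membrane regulators were not called: Cd46 at −0.01 ± 0.18, Cr1l at −0.03 ± 0.13 and Cd55 at −0.43 ± 0.27 (SE), and Cd46 was at 0.48 (adjusted p = 0.038) under quantile normalization. None of the 9 tested receptors passed the test, with differences from −0.86 to 0.64. C3ar1, the receptor of the C3 fragment C3a, was chosen for mention after its values were seen, as was C5ar1. C3ar1 was at 0.64 ± 0.21 (SE, adjusted p = 0.05, just outside the threshold), with −3.73, −4.41 and −3.92 in exosome-treated cells, against −4.91, −4.56 and −4.50 in untreated cells, and 6 of the 18 alternatives called it higher, while normexp gave 0.11 (adjusted p = 0.49), the lowest of a range up to 1.09. C5ar1, the receptor of C5a, was at 0.21 ± 0.13 (SE, adjusted p = 0.235).

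Mbl1, Colec10, Masp2, C1rl, Cfp, C8a, C9, C4bpa, Cpn1, Cpn2, Csmd1, Cr2 and Lair1 were not well above background on any array. Mbl2 was on 1 array and was not tested. Colec11, C4b, C5 (listed also under the symbol Hc), C7, C8g, Cd59 and Itgax were not analysed here.

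**Figure D4:**
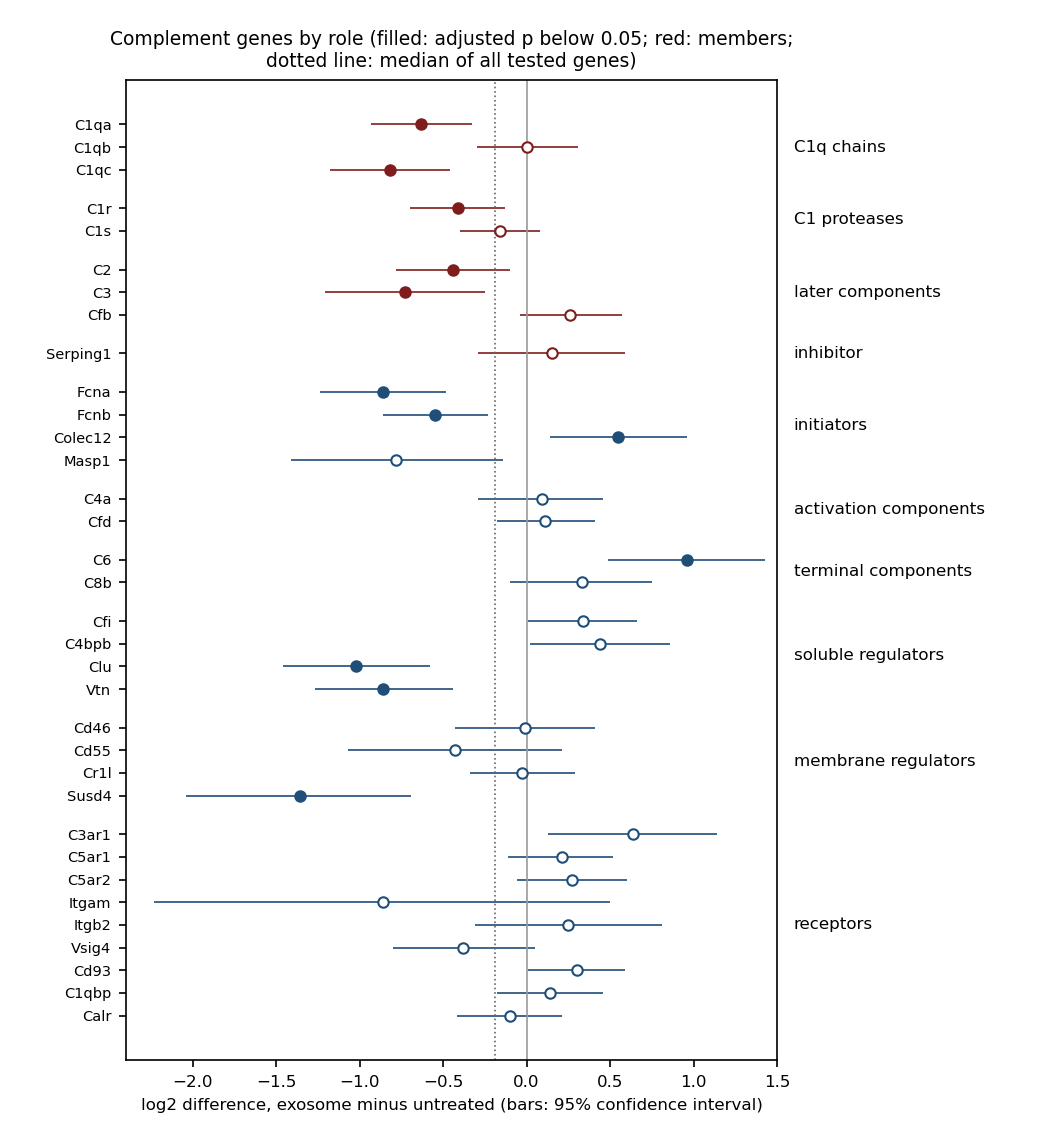
Log2 difference, exosome minus untreated, with its 95% confidence interval (x axis), of the 9 members in red and other tested complement genes in blue, grouped by role from top to bottom (y axis). Filled points have an adjusted p below 0.05 and the dotted line is the median of all tested genes, −0.19. Of the called genes C1qa, C1qc, C1r, C2, C3, Fcna, Fcnb, Clu, Vtn and Susd4 lie to the left and C6 and Colec12 to the right.

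Markers of macrophages, the usual source of C1q, were read beside the chains. Of 22 listed genes 20 were tested, 2 were called higher and 4 lower, with a median difference of −0.11, and quantile normalization gave 6 higher and 2 lower. The shares to set beside this and the cell type lists below are those over all tested genes, 14.5% higher and 29.2% lower. Under quantile normalization they were 2217 higher and 1762 lower of 10981. Summed macrophage marker levels, in multiples of the array's 75th percentile, were 135 to 147 on exosome arrays and 138 to 143 on untreated arrays. Brightest in that sum was Lgals3, at 5.91, 5.73 and 6.05 (log2) on exosome arrays, against 5.85, 5.84 and 5.80 on untreated arrays. Cd68 was at 3.15, 3.35 and −3.45 on exosome arrays, against 3.18, 3.47 and 3.40 on untreated arrays. It was not called (adjusted p = 0.309). Mpeg1 was not well above background on any array. Cx3cr1, the fractalkine receptor, fell by 1.94 (SE 0.40, adjusted p = 0.0144), Cd74, the invariant chain of antigen presentation, by 1.1 (SE 0.23, adjusted p = 0.0144) and the lysosomal protease Ctss by 0.72 (SE 0.15, adjusted p = 0.0147). Cd53, a tetraspanin of leukocytes, rose by 0.66 (SE 0.15, adjusted p = 0.0176). Each missed the test in at least 1 fit with an array left out: Cx3cr1 without untreated 2 (−1.82) or 3 (−1.60), Cd74 without untreated 3 (−1.1), and Ctss and Cd53 without exosome 1 (−0.64 and 0.64), untreated 2 (−0.72 and 0.68) or untreated 3 (−0.68 and 0.68). Cd74 also missed it under quantile normalization (−0.67). The part of macrophages in the C1q values was not tested.

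For the other cell types the preparation could hold, summed levels were 141 to 167 on exosome arrays and 146 to 153 on untreated arrays for the Leydig cell list. Of its 14 genes 11 were tested, with 0 called higher and 3 lower, and the steroid enzymes Cyp11a1 and Hsd3b1 were among those detected. Lhcgr and Nr5a1, defining genes of the cell type, were not well above background on any array. Stromal fibroblast markers summed to 139 to 151 on exosome arrays and 131 to 146 on untreated arrays, and of 14 tested 3 were called higher and 3 lower. Sertoli cell markers summed to 65.1 to 81.0 on exosome arrays and 81.7 to 94.0 on untreated arrays, with Amh not well above background on any array, and of 11 tested 1 was called higher and 2 lower. These counts rest on the brightest tested probe of each gene, and probes of a gene could disagree. Wt1, the Sertoli marker called higher, was at 0.49 (adjusted p = 0.0322), while its other tested probes were called lower at −1.09 and −1.16. Col1a1, a fibroblast marker called higher at 0.58, had another probe at −0.49. Fcgr2b, a macrophage marker called higher at 0.54, had another at −0.32. Csf1r, a macrophage marker not called at 0.05, had another probe that was called lower at −1.09 (adjusted p = 0.0125). Fcer1g, a macrophage marker called lower, was lower on both probes (−0.45 and −0.64). Peritubular myoid markers summed to 53.2 to 62.4 on exosome arrays and 72.2 to 76.6 on untreated arrays, and of 9 tested 1 was called higher and 3 lower. Endothelial markers summed to 1.35 to 1.62 on exosome arrays and 1.14 to 1.26 on untreated arrays, with Tek and Tie1 not well above background on any array, and of 7 tested 2 were called higher and 4 lower. Each sum, that of macrophages included, adds intensities, so its brightest genes weigh most. Single genes carried some of these sums. Without Clu, at 8.38 to 10.8 on exosome arrays and 15.8 to 23.0 on untreated arrays, the Sertoli sum was 54.3 to 72.6 on exosome arrays and 65.9 to 71.0 on untreated arrays, and the groups overlapped. Most of the sum left came from Ctsl. Its log2 levels were 5.88, 5.54 and 5.99 on exosome arrays and 5.88, 5.91 and 6 on untreated arrays. Without Pecam1, at 0.84 to 1.15 on exosome arrays and 0.416 to 0.613 on untreated arrays, the endothelial sum was 0.465 to 0.51 on exosome arrays and 0.643 to 0.721 on untreated arrays, which is the opposite direction. The myoid sums did not overlap between groups. The genes Clu, Ctsl, Pecam1, Wt1, Col1a1, Fcgr2b, Csf1r and Fcer1g were chosen for mention here after their values were seen. So were Lgals3 and Cd68 among the macrophage markers above. The part of these cell types in the complement values was not tested.

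The genes whose pattern was most like the mean of the C1q chains were Ost4, a subunit of the enzyme that attaches sugars to proteins, Dusp18, a phosphatase, and Kcmf1, a ubiquitin ligase. That mean joins unlike chains, at −0.63 for C1qa, 0.00 for C1qb and −0.82 for C1qc, and likeness to a single chain was not computed. Likeness was the root mean square difference over the 6 arrays after each gene's mean was removed, among 9509 genes that every array detected and no complement list held, and it was 0.033, 0.035 and 0.035 on the log2 scale. Ost4 had 4.72, 4.76 and 4.71 in exosome-treated cells, against 5.13, 5.18 and 5.29 in untreated cells, and differed by −0.47 ± 0.11 (SE). Dusp18 and Kcmf1 differed by −0.48 ± 0.12 and −0.45 ± 0.11 (SE). Most like C3 were Tead1, a transcription factor, at 0.087, Nfkbie, an inhibitor of NF-kB, at 0.089 and Ndrg1, a stress-responsive gene, at 0.090. Tead1 differed by −0.66 ± 0.17, Nfkbie by −0.72 ± 0.16 and Ndrg1 by −0.71 ± 0.18 (SE). Under quantile normalization Tead1 was at −0.22 (adjusted p = 0.41), Nfkbie at −0.41 (adjusted p = 0.074) and Dusp18 at −0.20 (adjusted p = 0.17). Over the 18 alternatives the calls were lost in 5 for Ost4 and Kcmf1, 7 for Dusp18, 8 for Tead1 and Ndrg1 and 6 for Nfkbie. Nfkbie had −3.5, −3.0 and −3.38 in exosome-treated cells, against −2.55, −2.59 and −2.58 in untreated cells. All these genes were chosen for their pattern. Their negative differences, and the high exosome 2 of the genes like C3, follow from that choice.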

How the data were processed

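RNA of 3 exosome-treated and 3 untreated samples was read on 6 Agilent arrays with Agilent Feature Extraction 11.0.1.1, per the submitters' processing notes. The processed fluorescence intensity has had background subtracted and spatial gradients removed on each array alone, per the file headers. The deposited table of all samples holds log2 values, whose 6 columns share a median of 5.68 and a maximum of 17. How it was made is not given in the sources used here, and it served as an alternative. Its differences nearly equalled those under quantile normalization (C1qa −0.66 and −0.67, C1qc −0.57 in both). These alternatives are therefore not separate support for each other. Marks for background, outliers and saturation are 0 or 1 per spot, per the file headers, and no spot was saturated.

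Control spots (1377 of 44254) were left out, and the spots of each of the 30367 probes were averaged on the log2 scale. Outlier spots were left out of that average unless all spots of the probe on that array were outliers, in which case they were kept. The 75th percentile over all gene spots, outlier spots included, was subtracted from each array. Probes well above background on at least 3 arrays were tested (20435, or 67.3%) with limma 3.58.1 in R 4.3.3 (prior degrees of freedom 2.58, two-sided, Benjamini-Hochberg over all tested probes), and the procedure was tested on simulated data. The number of arrays limits the precision. A gene was represented by its tested probe of highest mean signal over the 6 arrays, and levels of different genes were not compared. Where a gene was not well above background in 1 group, a bound was computed from the dimmest signal well above background on each array. Symbols came from RefSeq's table for GRCr8, used for names and neighbours only, since the array design rests on build rn4, and were found for 18005 probes. Promoters came from RefSeq's GRCr8 table. Motif letters were searched with Python 3.11.15.

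Each alternative departed from these settings in a single step, apart from the deposited table, whose making is unknown here, and normexp, where background correction and starting signal both differed. They were normexp with an offset of 50 on the median spot and local background intensity (the mean signal was not used), quantile normalization, median centring, the percentile over probes detected on all arrays, the deposited log2 table, no filter and a filter on all 6 arrays, the mean of a gene's probes, the replicate number and the scan as blocks, limma's trend, and each array left out. The percentile over probes in place of spots was added after seeing the data. Members, gene lists and tests were chosen with earlier results of these data known. Named were all members with all their probes, of each list of other complement genes up to 4 called genes of smallest p or all tested ones in lists of 5 or fewer, up to 4 called macrophage markers, and the 3 genes most like the C1q mean and like C3. C3ar1 and C5ar1 stand outside that rule. A gene picked by the rule is not reported here and stays in the counts.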

Additional observations from a re-analysis of the deposited data

How the results depend on the processing

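Over the 18 alternatives no member was called higher, and C1qa and C1qc kept their direction in all and their call in 15 and 17. Members called lower numbered 2 with median centring, no filter or the replicate block, 3 with the percentile over probes and 0 to 5 with an array left out. Other complement genes called higher numbered 9 under quantile normalization and in the authors' deposited table, 8 with median centring, 6 with the percentile over probes, 1 with the percentile over detected probes, no filter or the scan as a block, and 0 to 5 with an array left out. Those called lower numbered 3 under quantile normalization and in the authors' deposited table, and 1 to 6 with an array left out. Over all genes, calls higher numbered 2613 with median centring, 863 with no filter, 761 with the replicate block and 122 to 1725 with an array left out. Calls lower numbered 1762 under quantile normalization, 1783 in the authors' deposited table, 1851 with median centring and 767 to 3291 with an array left out. The lowest of each of these ranges came without untreated 2, except for other complement genes called higher (without exosome 1 or untreated 3). Same-numbered arrays did not deviate together (r = −0.087, −0.029 and −0.024). With 3 arrays per group and 1 group in each scan, these values cannot decide whether same-numbered samples share an origin, which the labels do not give. The replicate block left C1qa and C1qc called.

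Signs turned for C1qb (−0.04 under quantile normalization and in the authors' deposited table, −0.09 with the percentile over detected probes), C1s (0.06, median centring), C4a (0.00 on the negative side, percentile over detected probes), C8b (−0.04, normexp), Cd46 (0.48 quantile, 0.47 in the authors' deposited table, 0.21 median centring, 0.09 percentile over probes) and Cr1l (0.19 median centring, 0.07 percentile over probes). With an array left out C1qb ranged from −0.04 to 0.09, Serping1 from −0.01 to 0.25, Cd46 from −0.13 to 0.14 and Cr1l from −0.10 to 0.04. None of these genes was called in the fit of all arrays with the settings described above. Under quantile normalization Cd46 (adjusted p = 0.038) and C8b (0.86, adjusted p = 0.016) were called higher. C8b was also called with median centring (0.55, adjusted p = 0.037) and in the authors' deposited table. The cause of the turned signs was not tested. Susd4, dim on exosome arrays, had no value under the filter on all 6 arrays.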
